A study of Mus musculus with 8 samples.

Results

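The genes described here encode proteins of the mitochondrial ribosome. They were taken as every gene on the array whose name begins with Mrpl or Mrps followed by a number, which gave 75 of 28482 gene names, each read by its brightest probe over the 7 conditions. They were measured on 8 single-colour oligonucleotide arrays that carried labelled cRNA from spleen CD8+ T cells. The donors were OT-I mice on a C57BL6 background, whose T cells carry a transgenic receptor (TCR) for SIINFEKL, a peptide of ovalbumin shown on H-2Kb, a class I molecule. Cells were purified with magnetic beads, checked by flow cytometry and cultured; whether mice were pooled is not given in the sources used here. The 6 treated conditions had 1 array each: interferon beta (IFNβ) for 1 h followed by TCR stimulation for 1 h, the same IFNβ step followed by 6 h of TCR stimulation, TCR stimulation alone for 1 h or 6 h, and IFNβ alone for 2 h or 7 h. Untreated cells had 2 arrays. TCR stimulation used streptamers, reagents that hold several H-2Kb molecules loaded with the peptide. Every cell in the series, the untreated ones included, came from mice with the OT-I transgene. The design sets TCR stimulation and IFNβ, each alone and in sequence, against untreated cells.

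Mitochondria translate a small set of proteins from their own DNA, nearly all of them core subunits of the respiratory chain complexes and of ATP synthase. This is done by a dedicated ribosome whose RNA comes from mitochondrial DNA and whose proteins are encoded in the nucleus, made in the cytosol and imported. Its small subunit decodes the messenger RNA and its large subunit forms the peptide bond and holds the exit tunnel at the inner membrane. Many of its proteins descend from bacterial ribosomal proteins, and the others are specific to mitochondria. Resting T cells that are activated through the TCR enlarge their mitochondria as they leave quiescence.

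Of the 75 genes, 48 encode proteins of the large subunit and 26 of the small subunit. Mrps30 and Mrps18a are named for the small subunit, but their products sit in the large one and are counted there. Mrps36 carries the name of the family, while its product is a subunit of the 2-oxoglutarate dehydrogenase complex, and it was counted in neither subunit. By the current naming of ribosomal proteins 45 genes have a bacterial counterpart and 29 do not. The 75 genes had 125 probes on the array. Each of the 75 brightest probes was well above background on all 8 arrays and none was saturated, so no gene was lost to the filter on dim probes.

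The probes of Mrps18b and Mrps18c are printed because, of these paralogues related to bacterial S18, the first rose at 6 h of TCR stimulation and the other did not pass. A probe that read both transcripts would blur that contrast. The 2 probes, copied from the deposited files (build mm9), share at most 7 bases in a row. Neither probe was compared with the transcript of the other gene, so whether either reads both transcripts was not tested. Both probes are wholly in lower case because nothing in them is marked. Where each probe lies relative to exons and untranslated regions was not analysed here. Of the 75 probes 15, that of Mrps18b among them, span more of the genome than their own 60 bases.
Mrps18b probe, chr17:36051313-36051461, minus strand: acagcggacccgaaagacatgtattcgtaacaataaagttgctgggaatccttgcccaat
Mrps18c probe, chr5:101233411-101233470, plus strand: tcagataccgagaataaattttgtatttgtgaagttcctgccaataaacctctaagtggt

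Promoters are printed for chosen genes that each hold a motif match: Mrpl12, Mrpl17, Mrpl36 and Mrps18b, which rose at 6 h, and Mrps18c and Mrpl14, which did not. Of 66 genes with a promoter window 23 hold no match, among them Mrps6, the gene with the largest rise, and are not printed. Each covers 250 bases before and 50 bases after the start of the gene on the gene's own strand, as RefSeq gives them in build GRCm38.p6. Capitals mark a match to any of 5 motifs, searched on both strands: CCGGAAG for the ETS family, to which GABP belongs, GCGCANGCG for NRF1, AAGATGGCG for YY1, CACGTG for the E-box bound by MYC and its partners, and TGACGTCA for CREB.
Mrpl12 promoter, chr11:120484387-120484686, plus strand: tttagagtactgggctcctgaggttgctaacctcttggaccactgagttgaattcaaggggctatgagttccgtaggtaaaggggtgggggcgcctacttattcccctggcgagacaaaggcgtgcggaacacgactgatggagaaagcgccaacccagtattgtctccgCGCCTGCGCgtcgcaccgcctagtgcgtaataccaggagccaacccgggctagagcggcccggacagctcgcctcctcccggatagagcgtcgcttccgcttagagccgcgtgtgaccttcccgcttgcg
Mrpl17 promoter, chr7:105811038-105811337, minus strand: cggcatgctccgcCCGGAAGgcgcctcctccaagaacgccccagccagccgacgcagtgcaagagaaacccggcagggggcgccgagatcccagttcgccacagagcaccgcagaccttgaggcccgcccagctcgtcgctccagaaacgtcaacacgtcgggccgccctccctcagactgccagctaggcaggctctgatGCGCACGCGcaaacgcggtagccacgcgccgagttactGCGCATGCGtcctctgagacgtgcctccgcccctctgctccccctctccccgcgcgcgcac
Mrpl36 promoter, chr13:73330759-73331058, plus strand: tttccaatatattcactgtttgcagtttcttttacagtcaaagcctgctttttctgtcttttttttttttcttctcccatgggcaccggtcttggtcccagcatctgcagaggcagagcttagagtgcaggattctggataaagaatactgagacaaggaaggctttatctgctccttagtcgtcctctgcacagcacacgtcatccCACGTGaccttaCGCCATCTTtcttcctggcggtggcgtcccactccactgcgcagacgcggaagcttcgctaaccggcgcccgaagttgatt
Mrps18b promoter, chr17:35916391-35916690, minus strand: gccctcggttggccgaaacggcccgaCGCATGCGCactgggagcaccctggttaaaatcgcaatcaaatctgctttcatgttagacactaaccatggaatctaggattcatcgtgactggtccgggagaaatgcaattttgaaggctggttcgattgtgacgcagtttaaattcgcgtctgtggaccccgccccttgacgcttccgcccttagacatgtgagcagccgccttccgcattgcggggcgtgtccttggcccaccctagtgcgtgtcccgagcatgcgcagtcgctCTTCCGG
Mrps18c promoter, chr5:100798509-100798808, plus strand: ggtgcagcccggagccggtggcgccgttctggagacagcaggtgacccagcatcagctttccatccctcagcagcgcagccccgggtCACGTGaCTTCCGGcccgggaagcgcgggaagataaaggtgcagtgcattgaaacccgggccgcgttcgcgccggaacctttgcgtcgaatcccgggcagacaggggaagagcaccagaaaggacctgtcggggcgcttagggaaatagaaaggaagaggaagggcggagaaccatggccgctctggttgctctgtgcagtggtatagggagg
Mrpl14 promoter, chr17:45686099-45686398, plus strand: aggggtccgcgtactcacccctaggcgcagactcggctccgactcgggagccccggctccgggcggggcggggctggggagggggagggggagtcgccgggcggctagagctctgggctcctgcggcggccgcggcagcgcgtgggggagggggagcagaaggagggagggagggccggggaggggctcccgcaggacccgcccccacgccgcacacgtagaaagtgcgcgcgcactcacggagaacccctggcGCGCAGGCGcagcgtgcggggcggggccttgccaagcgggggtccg

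Signal differed between arrays. On each array 26065 to 29533 of 43379 spots, controls left out, were well above background, and the upper quartile of processed signals was 807 to 1241 intensity units. The 2 arrays with TCR 6 h had the lowest upper quartiles, 807 after IFNβ with TCR and 833 after TCR, and the untreated arrays the highest, 1241 and 1205. This scaling factor therefore moved with the comparison of TCR 6 h with no TCR, and its part in the size of the changes was not tested beyond the other scalings given below. Values below are scaled signals, with the 75th percentile of every array set to 1500. Precision is limited by the number of arrays, since every treated condition was measured on a single one. The 2 untreated arrays, close to each other, were averaged to 1 sample, and each p value therefore measures the spread around a model in which IFNβ, 1 h of TCR and 6 h of TCR add up on the log2 scale (7 samples, limma). Over the 75 genes the second untreated array minus the first had an SD of 0.07 on the log2 scale, with a range of -0.18 to 0.19. The deposited sources name the 2 arrays with 1 h of TCR stimulation in opposite ways. The naming of the series value table was used, so values that set these 2 arrays against each other rest on that choice. All arrays with 1 h of TCR lay on 1 slide and both with 6 h on the other, while each slide held 1 untreated array and 1 array with IFNβ alone.

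Markers of other cells moved with the TCR comparisons. The CD8 T cell markers Cd3e, Cd3g, Cd8a, Cd8b1 and Lck were well above background on all 8 arrays, and the summed signal of these 5 was 382290 to 614780 on the 4 arrays without TCR, 398760 to 493770 at TCR 1 h and 158950 to 178060 at TCR 6 h. Of 8 B cell markers 6 were well above background on every array and Pax5 on none. Their sum was 13066 to 41381 without TCR, highest on both arrays with IFNβ alone, 10236 to 11440 at TCR 1 h and 4614.5 to 5386.2 at TCR 6 h. The 5 class II markers, all well above background throughout, summed to 23019 to 52204 without TCR, 16254 to 23757 at 1 h and 10489 to 13601 at 6 h. For 8 myeloid markers, 6 of them well above background on every array, the sums were 2226.5 to 4498.3, 2400.6 to 4447.2 and 1912.5 to 1999.1 in the same order. On the TCR 6 h arrays these 4 sums were below their range on the arrays without TCR. The 5 NK cell markers, 4 of them well above background on every array, summed to 642 to 4115.1 without TCR, 512 to 2116.9 at 1 h and 966 to 967 at 6 h. Of the NK markers Eomes was the largest on every array, at 787 and 760 at 6 h, where Klrb1c was at 54.9 and 56.8. For 3 CD4 T cell markers (2 well above background throughout) the sums were 197 to 225 without TCR, 297 to 765 at 1 h and 235 to 288 at 6 h. Their 1 h rise lay mainly in Cd40lg, at 544 and 88.5 on the 1 h arrays against 5.7 to 9.4 without TCR. Cd4 was at 143 and 91.9 against 110 to 135, and Foxp3 at 77.3 and 116 against 59.5 to 91.4. For 4 erythroid markers (2 throughout) the sums were 1902.3 to 4873.4, 2363.6 to 2547.2 and 2133.6 to 3170.4. The part of other cells in the results was not tested. In bulk samples such as these, fewer cells of a type and less RNA per cell cannot be told apart.

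After 6 h of TCR stimulation most genes of the mitochondrial ribosome were higher. Against cells without TCR 60 of the 75 rose and 0 fell (limma, Benjamini-Hochberg adjusted p under 0.05 over 19917 genes), beside 22.2% of all genes higher and 22.6% lower. The estimate was positive for 72 genes (10321 of 19917 over all genes) and above 2-fold for 51 (4036 over all genes). Its median was 1.39 on the log2 scale, against 0.05 over all genes, and it ran from -0.61 to 3.25. On the TCR 6 h arrays taken singly, against untreated cells, 58 genes were at least 2-fold higher after IFNβ with TCR (21.2% of all genes) and 56 after TCR alone (21.5%), with 0 at least 2-fold lower on either. Leaving out IFNβ with TCR 6 h took the count of 60 to 33. On slide 2 alone, which holds both TCR 6 h arrays, it was 47 with a median of 1.42. There 3067 of all genes were higher and 3339 lower, in place of 4414 and 4509. Counts over all genes thus moved with the arrays used as well. They also fell when IFNβ with TCR 6 h was left out, and their ranges are given at the end. Without both arrays for IFNβ alone, a choice made after the marker sums had been seen, 18 genes passed with a median of 1.42.

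**Figure D1:**
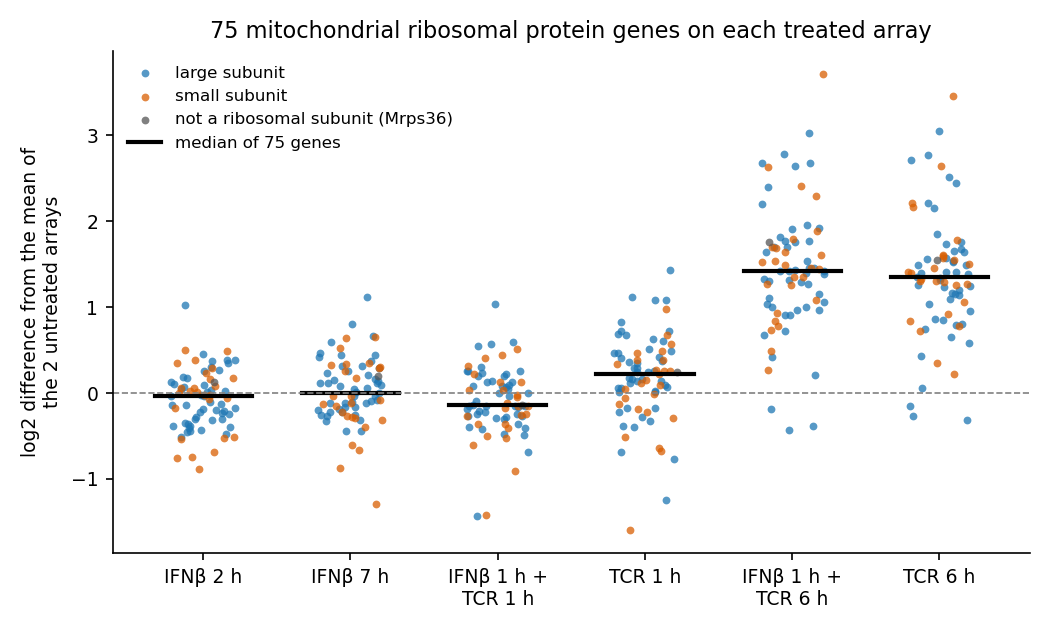
Log2 difference of each of the 75 genes from the mean of the 2 untreated arrays, on each of the 6 treated arrays, with 1 point per gene coloured by subunit and a bar at the median. The clouds for IFNβ 1 h with TCR 6 h and for TCR 6 h sit around medians of 1.42 and 1.35, and those of the other arrays around medians between -0.14 and 0.22.

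The rise was spread over both subunits. In the large subunit 36 of 48 genes rose, with a median of 1.40, and in the small subunit 23 of 26, with a median of 1.36. Among genes with a bacterial counterpart 33 of 45 rose (median 1.49), and among those without 26 of 29 did (median 1.36). The estimates varied more in the first of these classes, with an SD of 0.94 over genes against 0.56, and all 3 negative estimates belonged to it. No test of a difference between these classes was made.

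The gene with the largest rise was Mrps6, which encodes the counterpart of bacterial S6 in the small subunit. Its scaled signal was 81248 after IFNβ with TCR 6 h and 68039 after TCR 6 h, against 6424.8 and 5944.8 in untreated cells and 8649.1 and 9629.5 after IFNβ alone for 2 h and 7 h. Both TCR 6 h arrays lay far above every other array. The estimate was 3.25 ± 0.27 (SE, 2 arrays with TCR 6 h against 3 samples without TCR, adjusted p = 0.00051), a 9.53-fold rise, and a second probe of Mrps6 gave 3.20.

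Mrpl12 encodes the stalk protein of the large subunit, which contacts the translation factors and in human cells has also been described to bind the mitochondrial RNA polymerase. Its signal was 73700 after IFNβ with TCR 6 h and 74680 after TCR 6 h, against 9280.1 and 8776.7 untreated and 7071.8 and 7532.8 after IFNβ for 2 h and 7 h. The 2 arrays at 6 h were nearly equal, and the rise was 9.03-fold (3.17 ± 0.28, adjusted p = 0.000573). Mrpl10, whose product anchors this stalk, did not pass, at 0.48 (adjusted p = 0.131), whereas Mrpl11, at the base of the stalk, rose by 1.45.

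Mrps18a, Mrps18b and Mrps18c are 3 paralogues with unlike estimates. Mrps18b, whose product is in the small subunit, had 23335 after IFNβ with TCR 6 h and 23425 after TCR 6 h, against 3748.7 and 3779.1 untreated and 2247.3 and 2064.3 after IFNβ for 2 h and 7 h. It rose 8.40-fold (3.07 ± 0.29, adjusted p = 0.000638), and its second probe, far dimmer, gave 1.76. Mrps18a had 35984 and 30073 on the same 2 arrays, against 9302.5 and 9820.2 untreated and 7898.5 and 8841 after IFNβ for 2 h and 7 h. It rose 3.71-fold (1.89 ± 0.25, adjusted p = 0.0019). Mrps18c, the small-subunit protein that takes the place of bacterial S18, had 21611 and 18064, against 15973 and 14950 untreated and 16053 and 18969 after IFNβ for 2 h and 7 h. Its arrays with and without TCR overlapped, and its estimate of 0.26 ± 0.23 did not pass (adjusted p = 0.383), with a second probe at 0.38. The differences between the 3 genes were not tested.

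Further genes with large rises came from both subunits and both origins. Mrps28, which occupies the place of bacterial S1 at the small subunit, rose 7.67-fold (2.94 ± 0.35), with 61586 and 53538 on the arrays for IFNβ with TCR 6 h and TCR 6 h against 11394 and 11770 in untreated cells. Mrpl17, at the exit side of the large subunit, rose 6.88-fold (2.78 ± 0.27), and Mrpl15, a core large-subunit protein, rose 6.65-fold (2.73 ± 0.23). Mrpl47, the counterpart of bacterial L29 beside the tunnel exit, rose 6.30-fold, and Mrps2, of the small subunit, rose 5.60-fold. The second kept probes of Mrpl17, Mrpl15 and Mrpl47 gave 1.58, 1.97 and 2.54, and the other probes of Mrps2 gave 1.73 and 0.08. Mrpl20 (2.39), Mrpl50 (2.37), which has no bacterial counterpart, Mrpl36 (2.25) and Mrps10 (2.25) made up the 12 largest. Mrpl36, the smallest bacterial-type protein of the large subunit, is among the last to join it during assembly.

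Other genes chosen for their place in the ribosome are given next. Mrps12, whose product lies at the decoding site, rose by 1.64 on the log2 scale (SE 0.25), and Mrps7 and Mrps5, in the head and body of the small subunit, rose by 1.85 and 1.29. Mrpl3, which reaches towards the peptidyl transferase centre, rose by 1.78. At the tunnel exit Mrpl23 rose by 1.54, and Mrpl45, which docks the mammalian ribosome to the inner membrane, rose by 1.22. Mrps30, a large-subunit protein with no bacterial counterpart, rose by 1.47. Mrps36, of the 2-oxoglutarate dehydrogenase complex, rose by 1.54. Mrpl44, a large-subunit protein with a ribonuclease III fold, had the smallest rise that passed, 0.72 (adjusted p = 0.0415).

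**Figure D2:**
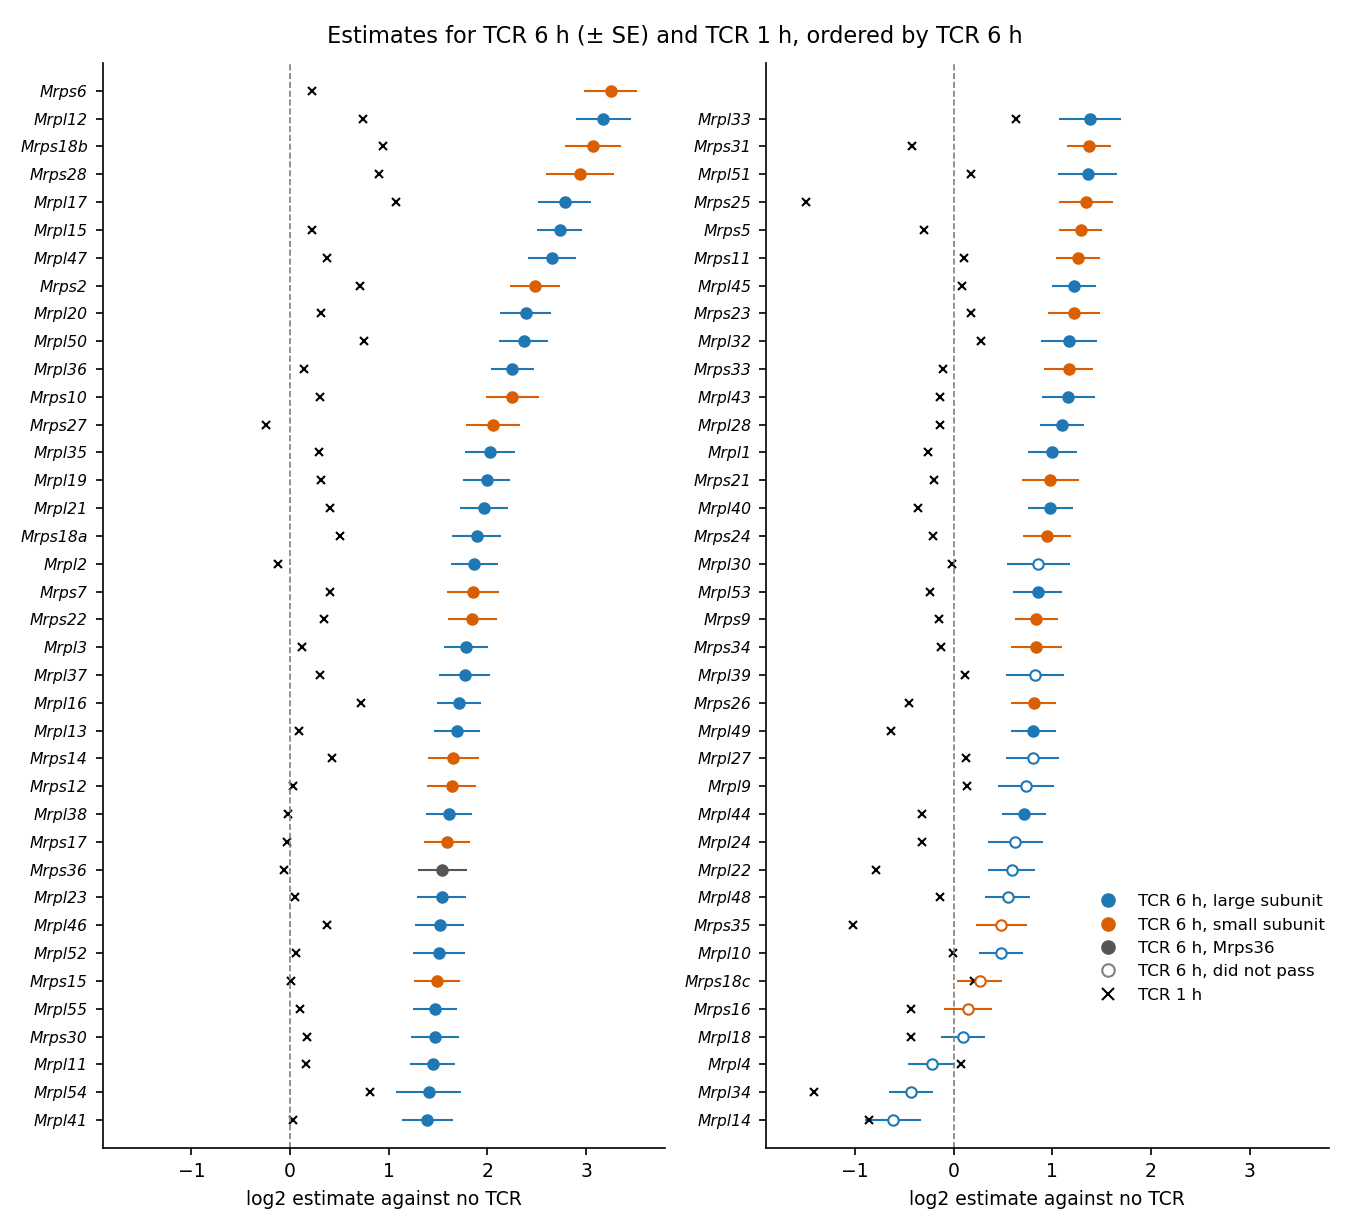
Log2 estimates of the 75 genes for TCR 6 h against no TCR (circles with SE bars, filled where the adjusted p was under 0.05) and for TCR 1 h against no TCR (crosses), ordered by the estimate at 6 h. Mrps6, Mrpl12 and Mrps18b lead at 3.25, 3.17 and 3.07, while Mrpl4, Mrpl34 and Mrpl14 end the order at -0.22, -0.43 and -0.61.

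At 6 h 15 genes did not pass. Of these 12 had positive estimates between 0.09 for Mrpl18 and 0.86 for Mrpl30, among them Mrpl39 at 0.82, Mrpl27 at 0.80, Mrpl9 at 0.73 and Mrps16 at 0.14. The 3 negative ones were all large-subunit genes. Mrpl14, whose product is the docking site of the factor that keeps the subunits apart during assembly, stood at -0.61 ± 0.28 (adjusted p = 0.130). Its signal was 6852.3 after IFNβ with TCR 6 h and 8281.8 after TCR 6 h, against 9228 and 9203.6 untreated and 12009 and 13880 after IFNβ for 2 h and 7 h. Mrpl34 stood at -0.43 (adjusted p = 0.166) and Mrpl4, which lines the exit tunnel, at -0.22 (adjusted p = 0.481). For each of these 3 genes both TCR 6 h arrays lay below all 4 arrays without TCR (31.7% of all genes). For 69 genes both lay above all 4 (35% of all genes), and for 68 they lay above all 6 other arrays (28.8% of all genes).

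**Figure D3:**
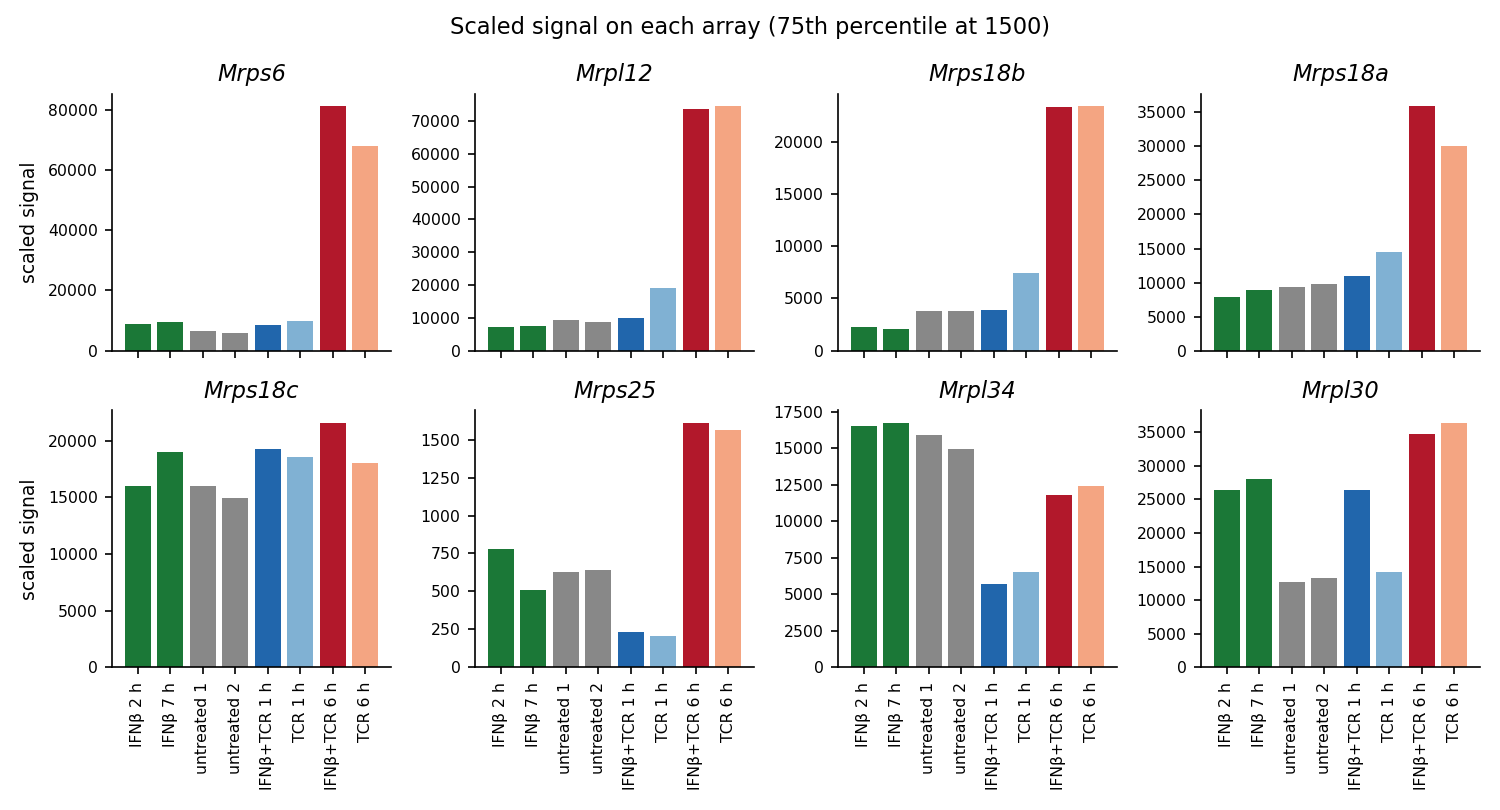
Scaled signal of 8 of the genes on each array, as bars from 0, with 1 bar per array and the 75th percentile of each array at 1500. In Mrps6, Mrpl12, Mrps18b and Mrps18a the 2 bars at TCR 6 h stand above all others. Mrps18c runs from 14950 on an untreated array to 21611 after IFNβ with TCR 6 h. Mrps25 and Mrpl34 have their lowest bars at TCR 1 h, and Mrpl30 is higher on both arrays with IFNβ alone than in untreated cells.

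The size of the rise depended on how arrays were brought to one scale. When arrays were scaled by their medians, which put the median of all genes at 0.37, 69 of the 75 genes rose with a median of 1.72. With quantile normalization 40 rose and 2 fell, Mrpl14 by 1.03 and Mrpl34 by 0.98 on the log2 scale, and the median was 0.73. With normexp background correction and quantile normalization 46 rose and 6 fell, with a median of 0.75. Those that fell were Mrpl14 by 1.06, Mrpl34 by 0.95, Mrps16 by 0.69, Mrpl4 by 0.57, Mrpl18 by 0.44 and Mrps18c by 0.38. All 40 and all 46 of the genes that rose were among the 60. Over all genes 5946 were higher and 3530 lower with the array median, and 4094 and 4387 with quantile normalization. With normexp and quantile normalization these counts were 4094 and 4250, and with the 75th percentile 4414 and 4509. The sign of the median of the 75 genes was positive under each of these scalings.

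**Figure D4:**
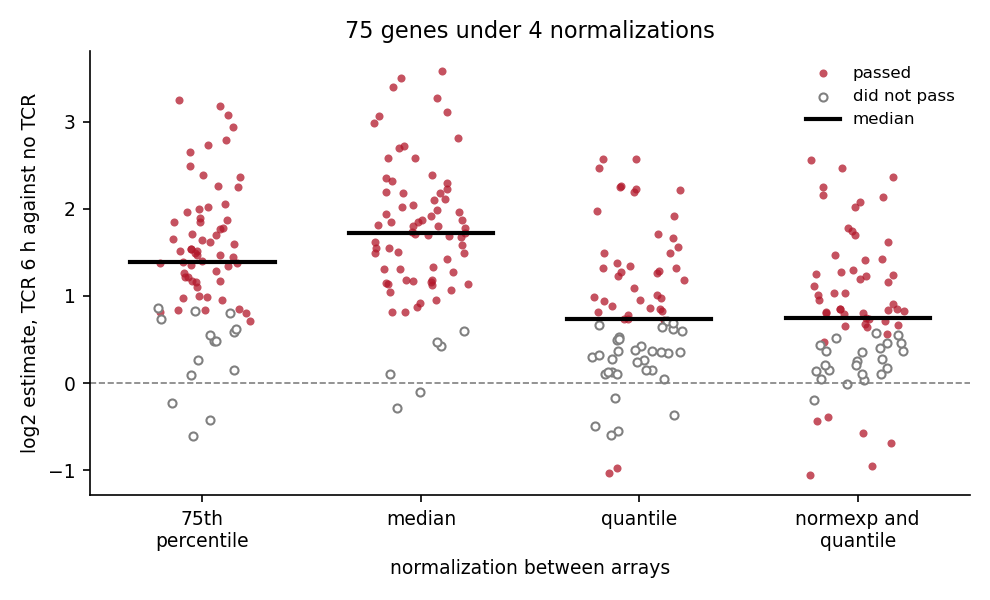
Log2 estimates of the 75 genes for TCR 6 h against no TCR under 4 normalizations between arrays, with filled points for genes that passed, open points for those that did not, and a bar at the median. The median is 1.39 with the 75th percentile, 1.72 with the array median, 0.73 with quantile normalization and 0.75 with normexp and quantile normalization.

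Other probes of the same genes gave similar estimates in most cases. More than 1 probe passed the filter for 33 genes, with 48 further probes between them. Of these 44 had the sign of the brightest probe at 6 h, and 34 lay within 0.5 of it on the log2 scale. The 4 with the other sign belonged to Mrpl41 (-1.44, adjusted p = 0.0348, against 1.39 for its brightest probe), Mrps9 (-0.83), Mrpl27 (-0.43) and Mrpl18 (-0.10). The discordant probe of Mrpl41 was dim, with a mean signal of 59.1.

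Cytosolic ribosomal protein genes and the genes of the respiratory chain give the nearest comparison. Of 79 cytosolic ribosomal protein genes 5 rose and 0 fell at 6 h, with a median of 0.45. Among 93 genes of the respiratory chain and ATP synthase, whose mitochondrially encoded partners the mitochondrial ribosome makes, 59 rose and 2 fell, with a median of 0.94. With the array median 35 cytosolic genes rose and 0 fell, and 72 respiratory genes rose and 0 fell. With quantile normalization 4 cytosolic genes rose and 0 fell, and 24 respiratory genes rose and 7 fell. With normexp and quantile normalization these counts were 5 and 1 for the cytosolic genes and 35 and 10 for the respiratory genes. The medians of the 3 groups kept their order under each normalization: 0.77 for cytosolic ribosomal protein genes and 1.27 for respiratory genes with the array median, 0.01 and 0.25 with quantile normalization, and 0.02 and 0.23 with normexp and quantile normalization. No test set these groups against each other.

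**Figure D5:**
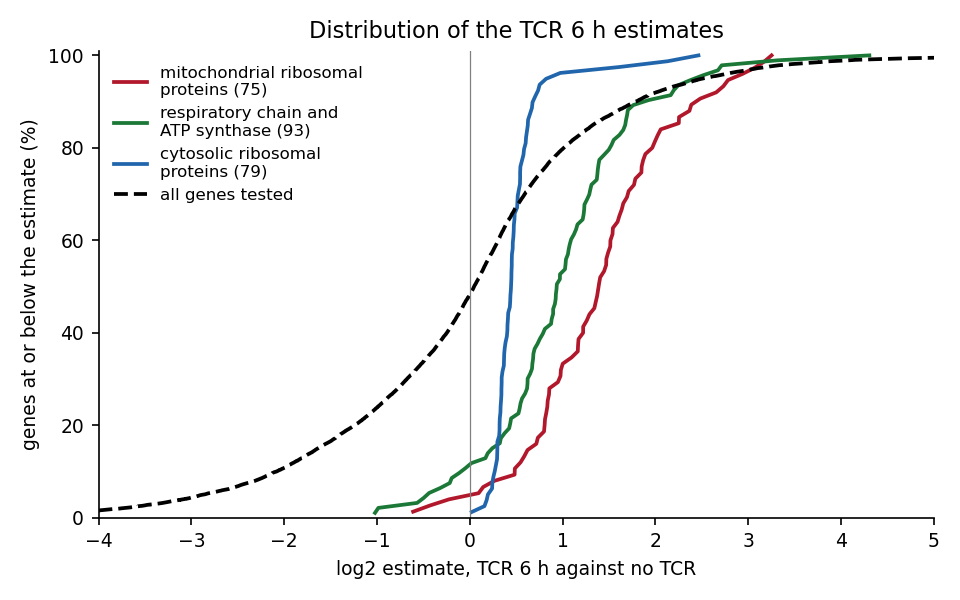
Share of genes at or below each log2 estimate for TCR 6 h against no TCR, for the 75 mitochondrial ribosomal protein genes, 93 genes of the respiratory chain and ATP synthase, 79 cytosolic ribosomal protein genes and all genes tested. The curve of the mitochondrial ribosomal protein genes lies furthest to the right over most of its length, with a median of 1.39 against 0.94, 0.45 and 0.05 for the other 3. These medians were 0.73, 0.25 and 0.01 for the 3 gene groups with quantile normalization.

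Genes that work with the mitochondrial ribosome were taken from lists chosen with earlier results of these data known. Of 7 ribosomal subunits with other names 5 rose at 6 h (median 1.69), namely Chchd1 (2.25), Gadd45gip1 (2.05), Ptcd3 (1.93), Mrpl57 (1.69, listed as Mrp63) and Aurkaip1 (0.85). Dap3, a GTP-binding protein of the small subunit, stood at 0.19 and Mrpl58, a peptidyl-tRNA hydrolase built into the large subunit, at -0.30. Mrpl42, listed on the array under another name, rose by 1.66. Of 26 genes for assembly and rRNA modification 13 rose and 0 fell (median 0.73), led by the rRNA methyltransferase gene Mrm3 (3.60), the pseudouridine synthase gene Pusl1 (8.00-fold), the GTPase gene Noa1 (2.95) and the RNA-binding protein gene Fastkd2 (2.51). Of 14 translation factors 5 rose and 1 fell (median 0.41). The ribosome recycling factor gene Mrrf rose by 2.16, and the elongation factor genes Tsfm, Gfm1 and Tufm by 2.09, 2.08 and 1.93. The release factor gene Mtrf1 fell by 1.22.

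Genes that load the transfer RNAs and that keep and copy mitochondrial DNA moved in both directions. Of 20 genes of aminoacyl-tRNA synthesis 6 rose and 2 fell (median 0.43). Yars2 (2.72), Gatc (2.12), Mars2 (2.10) and Nars2 (1.91) were the largest rises, and Cars2 was among those that fell, by 1.67. Of 18 genes for DNA maintenance, transcription and RNA processing 13 rose and 1 fell (median 1.25). The tRNA processing nuclease gene Elac2 rose by 2.93, Lrpprc, which stabilises mitochondrial messenger RNA, by 2.36, the helicase gene Twnk by 2.32 and Fastkd5 by 2.30, and Polg2, the accessory subunit of the DNA polymerase, fell by 1.65. Among 11 regulators of mitochondrial gene programmes 5 rose at 6 h and 0 fell: Myc (4.73), the coactivator gene Pprc1 (3.76), the GABP subunit gene Gabpb1 (2.60), Nrf1 (0.92) and Esrra (0.81). Gabpa, the DNA-binding subunit of GABP, stood at 0.68 (adjusted p = 0.0563).

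After 1 h of TCR stimulation the genes of the mitochondrial ribosome had not moved as a group. Against cells without TCR 0 of 75 rose and 2 fell (limma), beside 2.48% of all genes higher and 1.68% lower. An unadjusted p under 0.05 was seen for 14 of the 75 genes, 8 higher and 6 lower. Over all genes it was seen for 4658 of 19916, 2150 higher and 2508 lower. The median was 0.08, against -0.05 over all genes, and it was -0.08 with quantile normalization, -0.09 with normexp and quantile normalization and -0.06 without the array for TCR 1 h. Both 1 h arrays lay above all 4 arrays without TCR for 15 genes (15.5% of all genes) and below them for 13 (19.3% of all genes). Leaving out IFNβ 7 h, IFNβ 2 h, IFNβ with TCR 1 h or TCR 1 h, each in turn, took the count of genes that fell to 0, and leaving out either TCR 6 h array took it to 1. On slide 1 alone, which holds both 1 h arrays, it was 0, and with slide as a block it was 2. In these 2 fits 100 and 215 of all genes were lower, in place of 335, and each fit without 1 array named above also had fewer than 335. The fit with the block counted the untreated arrays as 2 samples. Without the block that choice gave 6 of the 75 genes that passed and 1289 of all genes lower.

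The 2 genes that fell were Mrps25 and Mrpl34. Mrps25, a small-subunit protein with no bacterial counterpart, had 236 after IFNβ with TCR 1 h and 209 after TCR 1 h, against 627 and 640 untreated and 778 and 508 after IFNβ for 2 h and 7 h. Both 1 h arrays lay below every other array, and the log2 estimate was -1.49 ± 0.27 (adjusted p = 0.0404). At 6 h the same probe reached 1612.5 after IFNβ with TCR and 1561.6 after TCR, above every other array, and the rise against no TCR was 1.34 (adjusted p = 0.00855). A second, dimmer probe of Mrps25 gave -0.94 at 1 h and 0.07 at 6 h. With the mean of both probes the estimate of Mrps25 for TCR 1 h against no TCR was -1.21 and did not pass (adjusted p = 0.122), nor did it pass with the scanner files' naming of the 1 h arrays (adjusted p = 0.0614).

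Mrpl34, a small protein of the large subunit, had 5728.5 after IFNβ with TCR 1 h and 6536.5 after TCR 1 h, against 15947 and 14966 untreated and 16559 and 16772 after IFNβ for 2 h and 7 h. Its estimate was -1.42 ± 0.22 (adjusted p = 0.0293), and its 1 h arrays also lay below every other array. At 6 h its signal was 11798 after IFNβ with TCR and 12445 after TCR, between the 1 h arrays and those without TCR. Genes with negative estimates that did not pass at 1 h were Mrps35 (-1.02, adjusted p = 0.0839), Mrpl14 (-0.86), Mrpl22 (-0.79) and Mrpl49 (-0.63).

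Taken singly against untreated cells, the array for IFNβ with TCR 1 h had 1 gene at least 2-fold higher, Mrpl30 (10.5% of all genes), and 2 at least 2-fold lower (6.98% of all genes), with 31 of 75 higher at all (48.2% of all genes). The array for TCR 1 h had 4 at least 2-fold higher (9.27% of all genes), Mrpl17 (1.43), Mrpl54 (1.12), Mrpl33 (1.09) and Mrpl12 (1.08), and 2 lower (8.82% of all genes), with 55 of 75 higher at all (52.3% of all genes).

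Genes with the largest positive estimates at 1 h did not pass either. Mrpl17 stood at 1.08 (adjusted p = 0.0813) by its brightest probe. Its second kept probe, far dimmer with a mean signal of 179, stood at 1.67 and passed in the fit over single probes (adjusted p = 0.0402). By their brightest probes Mrps18b stood at 0.94, Mrps28 at 0.90, Mrpl54 at 0.81, Mrpl50 at 0.75, Mrpl12 at 0.74, Mrpl16 at 0.72 and Mrps2 at 0.71. Mrps6, the largest at 6 h, stood at 0.22. Myc (4.78, adjusted p = 0.0177), Pprc1 (2.08, adjusted p = 0.0195) and Gabpb1 (2.07, adjusted p = 0.0361) of the regulators rose already at 1 h, while Nrf1 stood at -0.35. The other genes chosen for their place or role did not pass at 1 h. Their estimates ran from -0.32 for Mrpl44 and -0.30 for Mrps5 to 0.40 for Mrps7 and 0.51 for Mrps18a, with Mrps36 at -0.06, Mrpl10 at -0.01, Mrps12 at 0.03, Mrpl23 at 0.05, Mrpl45 at 0.08, Mrpl3 at 0.12, Mrpl36 at 0.14, Mrpl11 at 0.16, Mrps30 at 0.18 and Mrps18c at 0.20. Of the other lists the tRNA methyltransferase component gene Trmt10c rose (1.18), and Mrm2 and Mtrf1 fell by 1.55 and 1.23.

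Between 1 h and 6 h of TCR stimulation 60 of the 75 genes rose and 0 fell (limma), beside 16.3% of all genes higher and 15.4% lower. The median was 1.36, against 0.07 over all genes, and 74 estimates were positive (10523 of 19914 over all genes). Both 6 h arrays lay above both 1 h arrays for 71 genes (39.4% of all genes) and below them for Mrpl4 (32.9% of all genes). The largest rises were Mrps6 (3.03 ± 0.29, adjusted p = 0.00218), Mrps25 (2.84 ± 0.29), Mrpl15 (2.51), Mrpl12 (2.44), Mrps27 (2.30), a pentatricopeptide repeat protein of the small subunit, and Mrpl47 (2.28). After them came Mrps18b (2.13), Mrpl36 (2.11), Mrpl20 (2.08), Mrps28 (2.04), Mrpl2 (1.99) and Mrps10 (1.95). Of the genes placed by position above, Mrps2 rose by 1.78, Mrpl3 by 1.66, Mrps12 by 1.61, Mrps36 by 1.60, Mrps5 by 1.59, Mrpl23 by 1.49, Mrps7 by 1.45, Mrps18a by 1.39, Mrps30 by 1.29, Mrpl11 by 1.29, Mrpl45 by 1.14 and Mrpl44 by 1.04. Mrpl34 rose by 0.99 (adjusted p = 0.0252), which leaves it at 6 h still under the level without TCR, while Mrpl10 at 0.49 and Mrps18c at 0.06 did not pass.

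In this comparison 24 of 26 small-subunit genes rose (median 1.49) and 35 of 48 large-subunit genes (median 1.29). The count of 60 was 19 when IFNβ with TCR 6 h was left out, 20 when IFNβ with TCR 1 h was, and 39 when TCR 6 h was. Over all genes the counts fell in these fits too. The median of all 75 genes was 1.64 with median scaling, 0.87 with quantile normalization and 0.82 with normexp and quantile normalization. In the same order 65, 40 and 56 of the 75 genes passed, in place of 60, beside 6890, 5623 and 5839 of all genes, in place of 6319. With slide as a block and the untreated arrays as 2 samples 32 genes rose with a median of 1.29. Beside them 1523 of all genes were higher and 1264 lower, in place of 3243 and 3076. With the untreated arrays as 2 samples and no block 63 of the 75 genes passed, beside 3977 of all genes higher and 3666 lower. Time and slide go together here, apart from what the 4 arrays without TCR show of the slides.

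Few genes of any kind passed the threshold for IFNβ, 10 of 19919, so a count of 0 among those of the mitochondrial ribosome says little about them. The IFNβ term took 1 h, 2 h and 7 h of IFNβ as 1 level. Across the model 0 of 75 genes passed for IFNβ against no IFNβ (limma), beside 0.0502% of all genes higher and 0% lower. An unadjusted p under 0.05 was seen for 1706 of all 19919 genes and for 2 of the 75. These were Mrpl30 (0.67 ± 0.27, unadjusted p = 0.0437) and Mrps18b (-0.61 ± 0.24, unadjusted p = 0.0442), each with an adjusted p of 0.565, and Mrps28 at -0.55 and Mrpl12 at -0.42 followed in size. The median was -0.07, against -0.01 over all genes. It was 0.08 with the scanner files' naming of the 1 h arrays, 0.01 without these arrays and 0.03 on slide 2 alone.

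On the arrays with IFNβ alone the medians of the 75 genes lay close to the untreated level. At 2 h 34 of 75 were higher than untreated (median -0.04, 54.4% of all genes higher) and at 7 h 38 were (median 0.00, 57.2% of all genes higher). From 2 h to 7 h 52 were higher (median 0.10, 53.9% of all genes higher). Mrpl30, whose product has the place of bacterial L30, stood apart: its signal was 26328 and 27986 after IFNβ for 2 h and 7 h, against 12649 and 13227 untreated, at least 2-fold higher on both (10% and 10.7% of all genes). Mrps28 was lower, with 6300.2 and 4744.7 after IFNβ for 2 h and 7 h, against 11394 and 11770 untreated, log2 differences of -0.88 and -1.29. It was the 1 gene at least 2-fold lower at 7 h (7.15% of all genes), and 0 were at 2 h (5.28% of all genes). These values have no replicate array, and the same 2 arrays had the highest sums of B cell and class II markers.

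With and without IFNβ beforehand, the 2 arrays at TCR 6 h lay close to each other. IFNβ with TCR 6 h minus TCR 6 h had a median of 0.08 over the 75 genes, with 57 higher (50.4% of all genes). The SD over the 75 genes was 0.12, with a range of -0.28 to 0.32, against an SD of 0.54 over all genes. For this pair the SD was 0.105 over cytosolic ribosomal protein genes and 0.18 over respiratory genes. Between the 2 untreated arrays the SD was 0.07 over the 75 genes and 0.36 over all genes. At 1 h IFNβ with TCR minus TCR alone had a median of -0.30, with 14 higher (43.1% of all genes) and 61 lower, against a median of -0.10 over all genes. Mrpl33 had 41778 after IFNβ with TCR 1 h against 84774 after TCR 1 h, a log2 difference of -1.02, and Mrpl12 had 9837.3 against 19127 (-0.96). Mrps18b had 3845.9 against 7392.2 (-0.94), whereas Mrpl30 had 26434 against 14224 (0.89). The sign of each 1 h difference turns with the naming of these 2 arrays. Of the 79 cytosolic ribosomal protein genes 0 were higher in the same pair, with a median of -0.34.

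The model with an interaction tested whether the IFNβ effect differed between TCR and no TCR. IFNβ was given for 1 h before TCR but for 2 h or 7 h alone. In this term its duration and TCR therefore cannot be told apart. For TCR 6 h 0 of 75 genes passed (limma, 0% of all genes) and 0 had an unadjusted p under 0.05 (1622 of 19783 over all genes). The largest estimates were Mrps28 (1.28 ± 0.53), Mrpl30 (-1.14 ± 0.46), Mrpl39 (-0.87) and Mrps10 (0.82), and the median was 0.09. For TCR 1 h 0 of 75 passed (0% of all genes), and again 0 had an unadjusted p under 0.05 (1497 of 19738 over all genes). The largest were Mrps21 (-0.94 ± 0.47), Mrpl24 (-0.89), Mrpl9 (-0.88) and Mrpl33 (-0.86), with a median of -0.20, which was 0.00 with quantile normalization, 0.02 with normexp and quantile normalization and 0.28 with the scanner files' naming. This model had 1 residual degree of freedom, the difference between the arrays with IFNβ alone for 2 h and 7 h. Its p values and its standard errors near 0.5 rest on that difference and not on replicates, which bounds what it can show.

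Promoter windows were found in RefSeq for 66 of the 75 genes and for 12113 of all genes tested. Motif matches are letters in a window and not evidence of binding. The ETS letters CCGGAAG stood in 24 of the 66 genes (36.4%, against 17.1% of all genes), and ACCGGAAGT, which contains them, in 4 (6.06%, against 2.14%). The NRF1 letters GCGCANGCG stood in 15 (22.7%, against 12.9%). The YY1 letters AAGATGGCG stood in 7 (10.6%, against 2.96%). CACGTG stood in 5 (7.58%, against 10.7%) and TGACGTCA in 2 (3.03%, against 3.18%), and both of these read the same on either strand. The G and C content was similar, with medians of 58.5% and 59.3%.

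Genes with and without these letters both rose at 6 h. All 7 genes with the YY1 letters rose, Mrpl35, Mrpl36, Mrpl37, Mrps11, Mrps18a, Mrps24 and Mrps27, with a median of 1.89. The rest of the 66 genes had a median of 1.36, and 46 of them rose. In 5 of the 7 genes the YY1 letters lay between 12 and 37 bases after the start of the gene. In Mrpl36 they lay before it on the other strand, as capitals in the printed window show, and in Mrps11 they lay farther before it. Of the 24 genes with the ETS letters 17 rose (median 1.19, against 1.46 without), and of the 15 with the NRF1 letters 9 did (median 0.84, against 1.47). Of the 5 with CACGTG 4 rose (median 1.87, against 1.36 without), and both genes with TGACGTCA did (median 1.26, against 1.38). Mrps18b and Mrps18c both hold the ETS letters and Mrpl12 and Mrpl14 both hold the NRF1 letters, and the first of each pair rose while the other did not pass. These pairs were picked with their values known, and within each pair the letters lie at unlike places. An effect of the letters was not tested. Of 23 genes with no match to any of the 5 motifs 22 rose (median 1.49).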

How the data were processed

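RNA of 8 cell samples was hybridised to single-colour Agilent arrays. The authors' deposited intensity values are processed signals, background-subtracted and detrended within each array (Agilent Feature Extraction 10.7.3.1 and build mm9 per the file headers, version 9.5.3.1 per the submitters' processing notes). The deposited series value table held the same signals times 1 factor per array. Its naming of the 2 arrays with 1 h of TCR stimulation was used, with the scanner files' naming as an alternative. Its columns had medians of 73.8 to 102 and a floor of 15, and its scale follows from that match.

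Here each array's 75th percentile was set to 1500 and log2 taken. Probes well above background on at least 2 arrays were kept (28708 of 41174), and each gene was read by its brightest probe (19919 genes). Gene names are those of the files, updated by accession through RefSeq (26690 probes matched). An additive model of IFNβ, TCR 1 h and TCR 6 h was fitted to 7 samples with limma 3.58.1 in R 4.3.3 (3 residual degrees of freedom), and a model with interactions (1 residual degree of freedom). P values were adjusted by Benjamini-Hochberg over all genes tested. SE is that of the moderated fit. Scripts were tested on simulated data. Figures were drawn with matplotlib 3.10.9.

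The genes and lists were chosen with earlier results of these data known. Genes named at each comparison were up to 12 with the largest rises and falls that passed (the 4 largest estimates where none did), 17 genes placed by position or role in the ribosome, and the 4 largest of each accompanying list. Others, such as Mrpl14, Mrpl30, Dap3 and genes of the lists that fell, were named after their values were seen. Alternatives changed the scaling, the filter, the probe summary, the naming, the slide term and the arrays included.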

Additional observations from a re-analysis of the deposited data

How the results depend on the processing

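For TCR 6 h against no TCR, 60 genes passed, and leaving out 1 array gave 33 to 60 genes, with 18 without both arrays for IFNβ alone, an alternative added after seeing the data that leaves 5 of 7 samples. For TCR 1 h against no TCR, 2 genes passed, with 6 when the untreated arrays counted as 2 samples, 8 with normexp and quantile normalization, 4 with probes well above background on all 8 arrays, 4 with an intensity trend, 1 with the scanner files' naming, 1 with no filter on dim probes, 0 on slide 1 alone, 0 without both arrays for IFNβ alone, and 0 to 2 without 1 array. For TCR 6 h against TCR 1 h, 60 genes passed, with 32 with slide as a block and 19 to 60 without 1 array. With normexp and quantile normalization Mrps18c stood at -0.38 for TCR 6 h against no TCR (0.26 with the 75th percentile) and at -0.48 against TCR 1 h (0.06), each with an adjusted p past the threshold; the cause was not tested. For IFNβ and both interactions the count was 0 under each alternative that gave a value.

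Over all genes the counts were 3917 to 10420 for TCR 6 h (8923), 0 to 2533 for TCR 1 h (828), 2778 to 7643 between them (6319), 0 to 276 for IFNβ (10), and up to 5 and 65 for the interactions at 6 h and 1 h (0 each). With median scaling the share of higher calls was 62.7% in place of 49.5% at 6 h and 65.4% in place of 51.3% between 1 h and 6 h, and with normexp and quantile normalization it was 42.1% in place of 59.5% at 1 h. Over the named genes and all alternatives, 85 calls were lost, 2 were gained, 2 reversed, 117 changed sign without passing either way and 2351 kept their direction and side of the threshold. Slide alone gave no value for TCR 6 h against TCR 1 h or for the interactions. An interaction had no test without an array with IFNβ alone or either array of its own TCR time. No paired analysis was possible because the groups compared share fewer than 2 replicate numbers in the labels. Slide was used as a block in its place, with the untreated arrays counted as 2 samples.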
